A study of Mus musculus with 7 samples.

Results

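Binding of the retinoid receptors near 10 genes of acute phase proteins was examined in the mouse liver. The genes were the serum amyloid A genes Saa1, Saa2, Saa3 and Saa4, the pentraxin genes Crp and Apcs, the scavenger genes Hp and Hpx, and the orosomucoid genes Orm1 and Orm2. They are 10 of 21887 protein-coding genes of the RefSeq table for GRCm38.p6. Peaks of 6 deposited lists were taken when their midpoint lay in the gene span or within 50 kb of it, and a peak near several members was counted once. The 10 genes fall into 6 windows of 679 kb in all, because the 4 Saa genes share 1 window on chromosome 7 and Orm1 and Orm2 share 1 on chromosome 4. These windows held 194 of the 245004 peaks in the 6 lists.

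The lists come from ChIP-seq, in which DNA bound by a protein is pulled down with an antibody and sequenced. Livers of male wild type C57BL/6 mice aged 3 months were used, after a normal diet (control) or a diet with retinoic acid (RA), given for 1 day by the labels. A longer feeding period stands in the study's methods, so the duration remains uncertain. The proteins pulled down were the retinoic acid receptors α and β (RARα and RARβ) and the retinoid X receptor RXRα, with 1 library per receptor and diet. No replicate check is therefore possible, no test was made, and every difference describes these libraries. The lists carry no read totals, so depth is unknown here and may differ between them. The study gives read totals for RXRα and RARα only, with no diet named, so they were not assigned to these lists. Under control, the RARα, RARβ and RXRα lists held 35521, 14968 and 61128 peaks, and under RA they held 44296, 29467 and 59624. Whole liver holds several cell types, and the peaks do not tell them apart. Of 6 hepatocyte marker genes, 6 had an RXRα peak within 50 kb under each diet, as did 4 of 6 neuronal markers. Over all protein-coding genes the share was 83.1% under control and 83.7% under RA, so these counts say nothing about cell type.

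Acute phase proteins are plasma proteins that hepatocytes make in changed amounts during inflammation. Interleukin-6 and interleukin-1 raise many of them through STAT3, C/EBP and NF-κB factors. RARs bind DNA as heterodimers with RXR, classically at repeats of the half-site AGGTCA, and RXR is also the partner of receptors for fatty acids, oxysterols and bile acids. The peak caller gives each peak a score that grows with its significance over background. Scores are not normalized between libraries, so each is given with its place, the percent of peaks in the same list that score as high or higher. A small place is a high-scoring peak.

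The DNA just upstream of the starts shows how alike the copies are, and not all of it lies under peaks. The bases printed below were overlapped by peaks in 1 list for Saa1, 2 for Saa2 and 5 for Crp. The 250 bases before the start are printed from RefSeq (GRCm38.p6), 5′ to 3′ on the strand of the gene. The genes are the near-identical pair Saa1 and Saa2, Saa3, which no peak reached there, Crp, and Hpx, which peaks of all 6 lists overlapped. The printed bases lie at chr7:46742981-46743230 (minus strand), chr7:46751583-46751832 (plus strand), chr7:46715677-46715926 (minus strand), chr1:172697806-172698055 (plus strand) and chr7:105600117-105600366 (minus strand). Capitals mark matches, on either strand, to the receptor half-sites AGGTCA and GGTTCA, to the C/EBP letters TTNNGNAA or to the STAT letters TTCNNNGAA.
Saa1: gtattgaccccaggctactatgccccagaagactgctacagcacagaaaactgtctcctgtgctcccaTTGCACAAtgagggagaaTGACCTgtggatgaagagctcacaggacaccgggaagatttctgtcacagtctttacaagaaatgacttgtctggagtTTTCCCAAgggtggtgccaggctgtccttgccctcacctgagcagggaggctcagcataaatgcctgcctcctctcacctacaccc
Saa2: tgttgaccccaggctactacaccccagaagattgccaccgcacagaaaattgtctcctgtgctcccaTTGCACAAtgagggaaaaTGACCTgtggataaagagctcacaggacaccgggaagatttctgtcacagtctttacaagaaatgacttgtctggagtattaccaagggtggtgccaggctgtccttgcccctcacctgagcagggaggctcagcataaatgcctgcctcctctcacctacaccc
Saa3: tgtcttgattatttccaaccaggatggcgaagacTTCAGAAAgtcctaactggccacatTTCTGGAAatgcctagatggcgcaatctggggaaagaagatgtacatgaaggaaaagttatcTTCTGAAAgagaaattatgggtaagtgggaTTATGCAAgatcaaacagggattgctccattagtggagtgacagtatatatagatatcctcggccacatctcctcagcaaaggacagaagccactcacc
Crp: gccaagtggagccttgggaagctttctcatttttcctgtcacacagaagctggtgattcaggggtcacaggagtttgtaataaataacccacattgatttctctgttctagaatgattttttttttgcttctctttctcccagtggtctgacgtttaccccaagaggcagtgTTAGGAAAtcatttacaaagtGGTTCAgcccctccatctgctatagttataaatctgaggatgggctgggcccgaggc
Hpx: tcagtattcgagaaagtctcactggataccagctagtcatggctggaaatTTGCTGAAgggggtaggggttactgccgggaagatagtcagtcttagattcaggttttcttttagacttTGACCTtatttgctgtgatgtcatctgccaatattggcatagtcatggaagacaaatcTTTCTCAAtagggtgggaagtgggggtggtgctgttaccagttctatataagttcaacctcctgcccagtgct

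Promoters of 8 members were in the table, each with 250 bases before and 50 after the start, and both strands were searched. The half-site AGGTCA was found in 4 of the 8, those of Saa1, Saa2, Saa4 and Hpx, and in 16.3% of the 32851 promoters of the table. Of the same promoters, GGTTCA was found in that of Crp (10.4% of the table) and TTCNNNGAA in that of Apcs (8.30%). TTNNGNAA was found in 7 of the 8, all but Apcs (40.7%), and the NF-κB letters GGG and CC with 5 bases between them in Crp, Saa4, Saa1 and Saa2 (50.8%). In Crp, 1 NF-κB match overlapped the GGTTCA match. Direct repeats of AGGTCA with 1 or 5 bases between the copies were in 0 of the 8 (0.0396% and 0.00913% of the table). The HNF1 palindrome, GTTAAT and ATTAAC with 1 base between them, and the forkhead letters TGTTTAC were also in 0 of the 8 (0.00913% and 3.65%). A match describes letters only. Saa1 and Saa2 are near-identical copies, so their matches are not separate observations. With 8 promoters, the counts are too few to read a difference from the shares of the table.

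The Saa1 and Saa2 promoters matched at 287 of 299 aligned bases (96.0%). Of the 266 words of 35 bases in each, the length of the reads, 68 (25.6%) also occurred in the other copy. In the other 6 member promoters no such word occurred in any other promoter of the table. A read made of a shared word cannot be placed on 1 of the copies, so counts at the Saa1 and Saa2 starts are uncertain. The part of these words in the values at both starts was not tested.

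Nearly all members had receptor peaks in their windows. Within 50 kb of the span, RARα peaks were found for 10 of 10 members under control (83.0% of all protein-coding genes) and for 9 under RA (84.2%). RARβ peaks were found for 9 under control (69.7%) and 10 under RA (77.2%), and RXRα peaks for 10 under each diet (83.1% and 83.7%). Peaks in all 6 lists were found for 9 members, all but Apcs, against 66.6% of all protein-coding genes. Most protein-coding genes also had peaks at this distance. With 10 members in 6 windows, the counts are too few to read a difference from those shares. The 4 Saa genes are not separate observations because they share peaks.

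At the starts, the members differed more from one another. Within 1 kb of a start, RARα peaks were found for 6 members under control (47.9% of 21536 genes with a known start) and 6 under RA (48.0%). RARβ peaks were found for 4 under control (34.4%) and 7 under RA (41.8%), and RXRα peaks for 8 under each diet (41.3% and 43.3%). The starts of Orm1 and Hpx had a peak in all 6 lists, which makes 2 of 10 members against 25.7% of all genes. Those of Saa4, Crp and Orm2 had one in 5 lists, that of Apcs in 4, that of Hp in 3, those of Saa2 and Saa3 in 2 and that of Saa1 in 1. Hp was covered more often than this count shows, because the 2 wide RARα peaks also reached its start, which makes 5 lists.

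**Figure D1:**
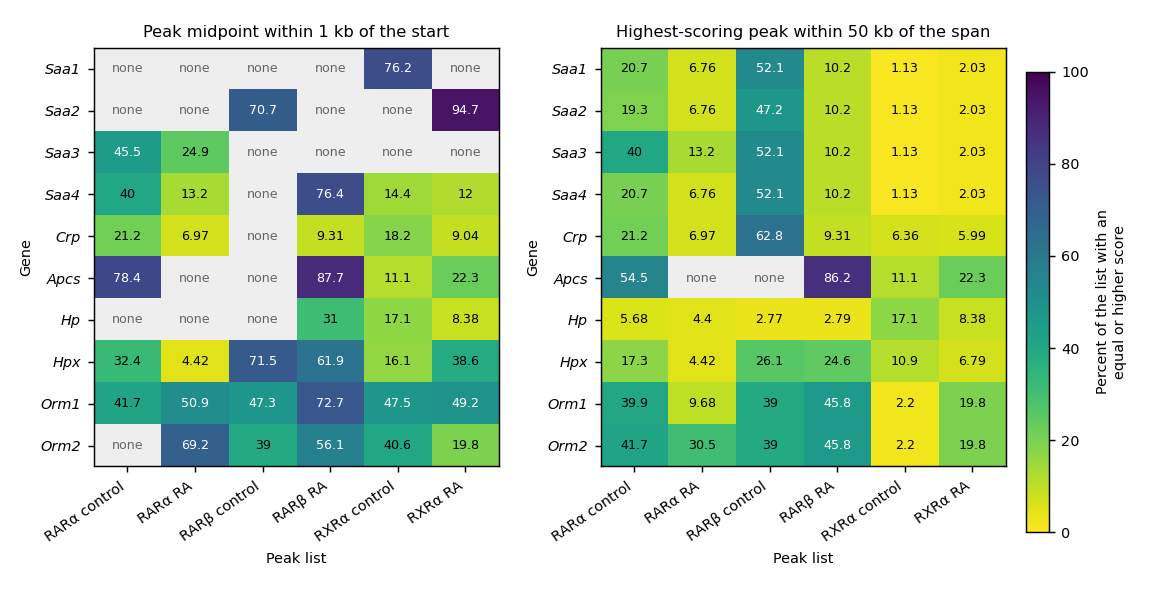
Place of the peak within 1 kb of the start (left) and of the highest-scoring peak within 50 kb of the span (right) for each member (rows) in each list (columns). Each cell gives the percent of the list with an equal or higher score, and "none" marks no peak. The upstream RXRα peak shared by the Saa windows has places of 1.13 and 2.03, while the starts of Saa1, Saa2 and Saa3 are mostly empty.

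Serum amyloid A proteins are apolipoproteins of high-density lipoprotein. Saa1 and Saa2 are the main acute forms of the liver, Saa3 is also made in other tissues, and Saa4 is expressed constitutively. The highest-scoring RXRα peak of the 6 windows lay in this cluster under each diet, away from the starts used here. The first region, chr7:46719030-46720283, lay 3.98 kb upstream of the Saa3 start used here. It spans the outer end of the RefSeq gene span of Saa3, which ends at position 46719615, and overlaps the non-coding gene Gm31882. Saa3 is on the minus strand, so this outer end is the 5′ end of the span. Whether the region lies at another Saa3 start was not tested. RXRα scored 1033 there under control (rank 690 of 61128, place 1.13) and 929 under RA (rank 1212 of 59624, place 2.03). RARβ scored 228 under RA (rank 3011, place 10.2) and RARα 164 under RA (rank 16375, place 37.0). Neither RAR had a peak there under control.

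The other strong region of the cluster, chr7:46745579-46747011, lay in the 8.85 kb between the divergent starts of Saa1 and Saa2, 3.32 kb upstream of Saa1. RXRα scored 674 under control (rank 2819, place 4.61) and 904 under RA (rank 1322, place 2.22). RARβ scored 50.9 under RA (place 98.3), close to the lowest score of any list, 50. RARα had 2 peaks there under RA, the higher of which scored 101 (place 59.2). Again no RAR peak was called under control.

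At the starts taken from the promoter table, the peaks of Saa1, Saa2 and Saa3 were few. For Saa3 this holds for that start only, since the 5′ end of its RefSeq span carries the RXRα peak described above. At Saa1 the only peak within 1 kb was an RXRα control peak with a score of 78.7 (place 76.2). At Saa2 a RARβ control peak scored 61.2 (place 70.7) and an RXRα peak under RA scored 56.0 (place 94.7). At Saa3 RARα peaks lay 0.936 kb downstream under control (score 123, place 45.5) and 0.983 kb downstream under RA (score 222, place 24.9), and the 250 bases printed above were overlapped by no peak of any list. The peaks at Saa1 and Saa2 were called under 1 diet for their receptor and stood in the lower part of their lists.

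At Saa4, whose start lies 10.4 kb from that of Saa1, all lists but RARβ control had a peak over the start. RARα scored 139 under control (place 40.0) and 317 under RA (place 13.2). RXRα scored 400 (place 14.4) and 464 (place 11.96), and RARβ scored 67.0 under RA (place 76.4). Over the whole Saa window, control and RA lists held 5 and 9 peaks of RARα, 3 and 7 of RARβ, and 9 and 10 of RXRα.

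Crp and Apcs encode the short pentraxins C-reactive protein and serum amyloid P component, which bind microbial and damaged-cell surfaces. In mice Apcs is the strongly induced one of the pair. Both genes lie on chromosome 1, 197 kb apart from start to start. The Crp start had a peak in 5 lists. RARα scored 231 there under control (rank 7539, place 21.2) and 405 under RA (rank 3088, place 6.97). RXRα scored 348 (rank 11110, place 18.2) and 533 (rank 5390, place 9.04). RARβ had no peak within 1 kb of the start under control and scored 237 under RA (rank 2743, place 9.31). The Crp start thus stood higher in the RA list than in the control list for RARα and RXRα, and was in the RARβ list under RA only.

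Among the peaks of the 6 windows in the highest 10% of their own list, the RARβ peak at Crp was the only one without any overlap in the other diet. Such one-diet peaks made up 18.0% of the highest 10% of the whole RARβ list under RA. At 46.0 kb upstream of Crp, in the non-coding gene Gm35601, RXRα scored 597 under control (place 6.36) and 638 under RA (place 5.99). RARβ scored 140 there under RA (place 30.4), and RARα 54.7 and 152 (places 93.3 and 40.3). The RARβ control list had 1 peak in the Crp window, 8.40 kb downstream of the start, with a score of 66.0 (place 62.8).

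Apcs was the member with peaks in the fewest lists, 4 of 6. Its start had RXRα peaks with scores of 462 under control (rank 6765, place 11.1) and 311 under RA (rank 13297, place 22.3). A RARα peak scored 67.6 under control (place 78.4) and a RARβ peak 57.8 under RA (place 87.7). The RARα list under RA and the RARβ control list had no peak in the whole Apcs window. Crp and Apcs thus stood apart under RA, with the RXRα peak higher in the RA list at Crp and lower in it at Apcs.

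Hp encodes haptoglobin, which binds free haemoglobin, and Hpx encodes hemopexin, which binds free haem. At Hp, on chromosome 8, the RARα peaks were unusually wide. The control peak was 6372 bp wide, the 25th widest of 35521, and the RA peak 4883 bp, the 59th widest of 44296. Both covered the whole 4045 bp of the Hp span, so that their midpoints lay 2.99 and 2.10 kb inside the gene. Their scores were 97.9 (place 56.7) and 170 (place 35.4).

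RXRα peaks over the Hp start were narrower, 873 bp under control and 1583 bp under RA. They scored 361 (rank 10465, place 17.1) and 551 (rank 4994, place 8.38). RARβ scored 139 there under RA (place 31.0) and had no peak at the start under control. A further region 5.80 kb upstream, which overlaps the non-coding gene Gm39247 at 1 end, was called in the same 5 lists, with RXRα scores of 335 and 397 and a RARβ score of 172 under RA (places 19.3, 15.6 and 20.1). RARα scored 54.6 and 95.6 there (places 93.5 and 62.4). The 2 RARβ control peaks of the Hp window were at the starts of other genes, Dhx38 (score 324, rank 414, place 2.77) and Dhodh (score 162, place 12.5).

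The Hpx start, on chromosome 7, was called in all 6 lists. RARα scored 169 under control (rank 11502, place 32.4) and 466 under RA (rank 1956, place 4.42), the widest change of place of RARα at a member start. RARβ scored 60.8 (place 71.5) and 82.4 (place 61.9). RXRα went the other way in its list, from 374 (place 16.1) to 193 (place 38.6). At 3.15 kb upstream of Hpx, RXRα scored 465 (place 10.9) and 606 (place 6.79), RARα 107 and 290 (places 52.3 and 16.0), and RARβ 157 under RA only (place 24.6). The start and the upstream region of Hpx thus differed in the direction of RXRα between diets.

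Orm1 and Orm2 encode orosomucoids, plasma proteins of the lipocalin family that carry small lipophilic molecules. Their starts lie 17.9 kb apart on chromosome 4, with Orm3 between them. The Orm2 and Orm3 promoters matched at 263 of 295 aligned bases (89.2%) and shared no 35-base word. No promoter sequence was at hand for Orm1, so words that it may share with Orm2 or Orm3 were not counted. The Orm1 start was called in all 6 lists, 5 times near the middle of the list and lower in the RARβ list under RA. RARα scored 134 and 120 under control and RA (places 41.7 and 50.9), RARβ 78.8 and 70.4 (places 47.3 and 72.7), and RXRα 150 and 147 (places 47.5 and 49.2). The Orm1 start stood lower in the RA list for all 3 receptors, though only slightly for RXRα. The Crp start stood higher there for RARα and RXRα, and had no RARβ control peak to compare.

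At the Orm2 start, RXRα scored 179 under control (place 40.6) and 339 under RA (place 19.8). RARβ scored 88.8 (place 39.0) and 90.2 (place 56.1), and RARα 84.5 under RA only (place 69.2). The region with the highest RXRα control score of the window, chr4:63338390-63339290, lay 5.72 kb upstream of Orm1 in the non-coding gene Gm52743. RXRα scored 861 there under control (rank 1344, place 2.20). Under RA it scored 298 (rank 14072, place 23.6), below the 339 at the Orm2 start. In this upstream region RARα and RARβ peaks were called under RA only, with scores of 107 and 106 (places 56.7 and 45.8). RXRα thus stood lower under RA at this region. At the Saa1 to Saa2 interval, where both RARs were also called under RA only, it stood higher. Other such regions were mixed. Under control and RA, RXRα had places of 23.4 and 20.5 near the Orm3 start. Its places were 1.13 and 2.03 at the Saa3 region, and 23.5 and 36.9 at 7.89 kb upstream of Hp.

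**Figure D2:**
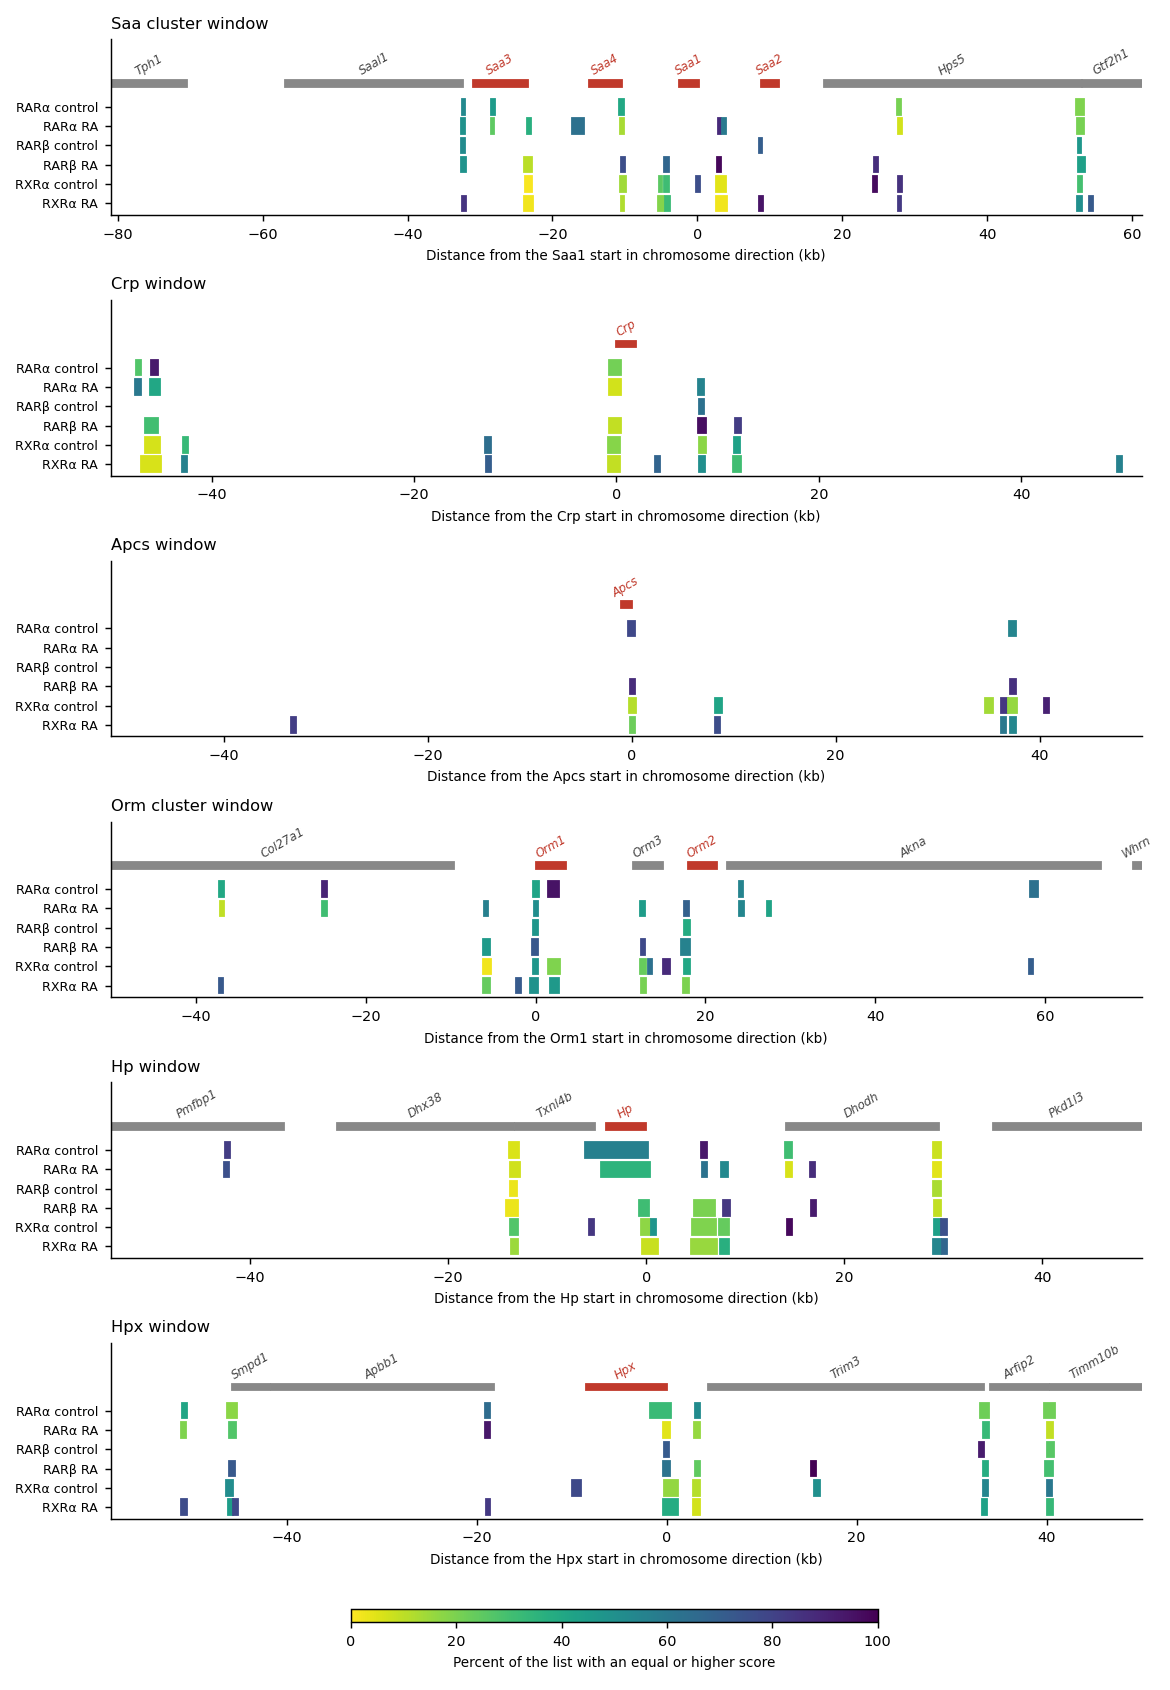
Peaks of the 6 lists (rows) in the 6 windows, against distance in kb from 1 member start in chromosome direction, with member genes in red and other protein-coding genes in grey. Colour gives the percent of the list with an equal or higher score, and peaks under 0.5 kb are drawn 0.5 kb wide. RARβ control peaks number 11 in all, against 45 RXRα control peaks, and 0 to 3 fall in any 1 window.

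Across the windows, distinct peaks under control and RA numbered 29 and 36 with RARα, 11 and 29 with RARβ, and 45 and 44 with RXRα. The median per member was 4.5 and 7.5 peaks of RARα, 2 and 6 of RARβ, and 7.5 of RXRα under each diet. The medians over all protein-coding genes were 4 under each diet for RARα, 1 and 3 for RARβ, and 5 under each for RXRα. Other genes of the response, listed further below, had medians no lower than the members. Further positive genes had 6 and 8 for RARα, 3 and 7 for RARβ, and 12 and 11 for RXRα. For negative genes these were 7 and 10, 3 and 7, and 13 and 14.5. For genes that control the response they were 6 and 8, 3 and 6, and 12 and 11.5. Every list was also held to its 14968 highest-scoring peaks. The counts were then 15 and 16 for RARα, 11 and 13 for RARβ, and 17 and 14 for RXRα. That is the full length of the RARβ control list, so of the RARβ lists only the RA list was cut. Whether the RARβ difference reflects list length was not tested.

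Peaks were sorted into those within 1 kb of a member start, those within 1 kb of another gene's start, and those elsewhere. Under control, 2 RARα peaks and 1 RARβ peak were in the highest 10% of their list, and these were at the starts of the neighbours Dhx38 and Dhodh. The 4 RXRα control peaks in the highest 10% were all elsewhere, upstream of Saa3, Saa1, Orm1 and Crp. Under RA, 8 of 36 RARα peaks (22.2%) were in the highest 10%, 2 at the member starts of Crp and Hpx, 3 at other starts and 3 elsewhere. Those elsewhere lay 19.1 kb downstream of Saa2, 14.5 kb upstream of Hp and 36.9 kb upstream of Orm1 (places 6.76, 6.17 and 9.68). The 6 RXRα peaks under RA comprised 2 at the member starts of Crp and Hp and 4 elsewhere, and 0 at other starts. The 3 RARβ peaks under RA were 1 at the Crp start, 2 at other starts and 0 elsewhere. These are small numbers, and the lists as a whole also differ, with 28.4% and 23.6% of all RARα peaks, 46.9% and 29.4% of all RARβ peaks and 15.4% and 16.3% of all RXRα peaks within 1 kb of a start under control and RA. Of the RARβ control peaks in the windows, 4 were at member starts, 6 at other starts and 1 elsewhere, against 9, 8 and 28 for RXRα control. The windows were chosen around genes, so their shares of peaks at starts are not comparable with those of the whole lists.

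**Figure D3:**
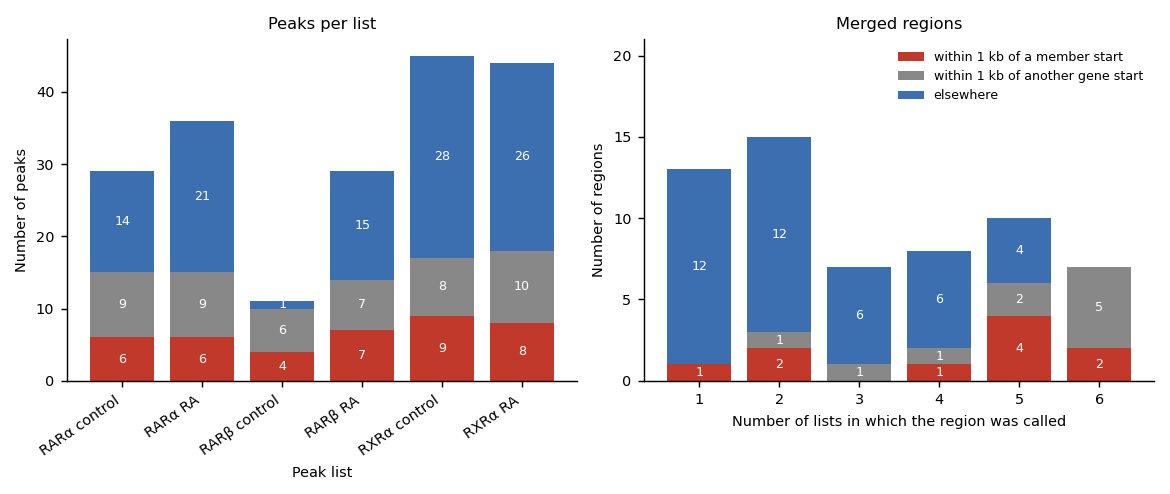
Number of peaks per list (left) and of merged regions by the number of lists that called them (right), split by location. Of the 7 regions called in all 6 lists, 2 are at member starts, 5 at other starts and 0 elsewhere, while 12 of the 13 regions of 1 list are elsewhere.

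Overlapping or touching peaks of the 6 lists were merged into 60 regions, of 87787 in the genome. Of the 60, 13 were in 1 list (21.7%, against 29.4% in the genome) and 7 in all 6 (11.7%, against 9.76%). The 7 were the starts of Orm1 and Hpx and the starts of the neighbours Hps5, Trim3, Arfip2, Dhx38 and Dhodh, so that most were not at acute phase genes. All 3 receptors, in either diet, were found in 24 regions (40.0%, against 25.8%), and RXRα alone in 16 (26.7%, against 36.3%). RARα alone was found in 7 regions (11.7%, against 16.4%) and RARβ alone in 0 (against 1.98%). The windows were drawn around genes, which the regions of the genome were not.

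Peaks were called shared when they overlapped by at least 25% of both widths. The 95% intervals are exact (Clopper-Pearson), reflect the number of peaks alone, not how animals vary. Of the control peaks in the windows, 25 of 29 RARα peaks (86.2%, interval 68.3 to 96.1) were shared with the RA list, against 84.2% of the whole list. For RARβ these were 9 of 11 (81.8%, 48.2 to 97.7), against 75.8%, and for RXRα 34 of 45 (75.6%, 60.5 to 87.1), against 78.7%. In the other direction, 25 of 36 RARα peaks under RA (69.4%, whole list 68.4%), 9 of 29 RARβ peaks (31.0%, whole list 38.2%) and 33 of 44 RXRα peaks (75.0%, whole list 80.3%) were shared with control. Each whole-list share lies inside the interval around the share in the windows.

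Between receptors, 18 of 29 RARα control peaks (62.1%, interval 42.3 to 79.3) were shared with RXRα, against 61.1% of the whole list, and 25 of 36 under RA (69.4%, 51.9 to 83.7), against 61.7%. Of the RARβ peaks, 8 of 11 under control (72.7%, 39.0 to 94.0) and 26 of 29 under RA (89.7%, 72.6 to 97.8) were shared with RXRα, against 77.8% and 89.9%. RARβ was shared with RARα at 7 of 11 peaks under control (63.6%, whole list 74.2%) and 21 of 29 under RA (72.4%, whole list 72.1%). These are descriptions of single libraries, and neighbouring peaks are not independent, so the intervals are no test.

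For regions that 1 receptor had under both diets, places in the lists were set side by side. RARα had 25 such regions, of which 18 stood higher in the RA list, against 62.4% of such regions in the genome, and the median place was 40.0 under control and 24.9 under RA (genome 42.4 and 34.5). RARβ had 10, of which 5 stood higher under RA, against 64.5%, with median places of 47.3 and 46.2 (genome 40.6 and 28.0). RXRα had 32, of which 17 stood higher under RA, against 50.3%, with median places of 24.3 and 32.6 (genome 39.6 and 39.9). Regions of 1 diet numbered 4 for control and 10 for RA with RARα, 1 and 19 with RARβ, and 10 and 10 with RXRα. Counted as peaks of the whole lists, 15.4% of control and 30.9% of RA peaks of RARα had no overlap in the other diet, 22.2% and 61.1% of RARβ, and 20.7% and 19.3% of RXRα. The corresponding peaks in the windows were 4 of 29 and 11 of 36, 1 of 11 and 19 of 29, and 11 of 45 and 11 of 44.

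**Figure D4:**
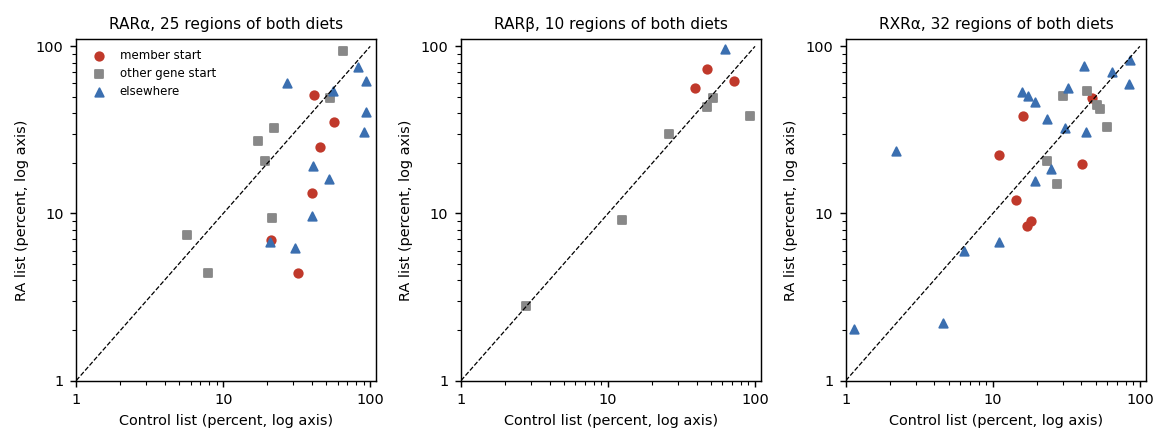
Place of each region in the control list (x axis) and the RA list (y axis) of the same receptor, in percent of the list with an equal or higher score, on log axes, for regions called under both diets. Points below the dashed line stand higher in the RA list, which holds for 18 of 25 RARα, 5 of 10 RARβ and 17 of 32 RXRα regions.

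Other genes of the acute phase response were counted in the same way. Over all genes, the shares within 50 kb were 83.0% and 84.2% for RARα, 69.7% and 77.2% for RARβ, and 83.1% and 83.7% for RXRα under control and RA. Within 1 kb of a start they were 47.9% and 48.0%, 34.4% and 41.8%, and 41.3% and 43.3%. Of 20 further positive acute phase genes, such as Lcn2 (lipocalin 2, which binds bacterial iron carriers) and the metallothionein genes Mt1 and Mt2, 20 had an RXRα peak within 50 kb under each diet. RARα peaks were found for 19 under each diet, and RARβ peaks for 18 and 19. Within 1 kb of the start, 16 and 17 of these genes had an RXRα peak, 9 and 14 a RARα peak and 6 and 13 a RARβ peak under control and RA. The best RXRα control ranks were 527 for Lcn2 and 643 for the peak shared by Mt1 and Mt2, next to 690 for the Saa3 region.

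Of 10 negative acute phase genes, whose products fall in inflammation, such as Alb (albumin), Apoa1 and Apoa2, 10 had an RXRα and 10 a RARα peak within 50 kb under each diet. RARβ peaks were found for 9 and 10. Within 1 kb of the start, RARα peaks were found for 4 under control and 2 under RA, RARβ peaks for 0 and 4, and RXRα peaks for 7 and 6. Their best RXRα control ranks were 551 for Alb, 698 for Apoa1 and 973 for Apoa2, at 13.1, 12.7 and 17.0 kb upstream of the starts. Of 20 genes of the cytokine signals and factors that control the response, 20 had an RXRα peak within 50 kb under each diet. Within 1 kb of the start, 17 and 15 had an RXRα peak, 16 and 17 a RARα peak and 11 and 15 a RARβ peak. Within 50 kb of the span, the best RXRα control ranks were 508 for Il1rap (the interleukin-1 receptor accessory protein), 611 for Cebpa (C/EBPα) and 1138 for Nfkbia (the NF-κB inhibitor IκBα). These peaks lay 124.5, 48.9 and 18.6 kb downstream of the starts.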

How the data were processed

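Livers of male C57BL/6 mice under a control or RA diet were profiled by ChIP-seq for RARα, RARβ and RXRα with single-end reads of 35 bp. Per the submitters' processing notes and the study's methods, the authors ran CASAVA 1.4, aligned to mm10 with Bowtie and called peaks with MACS. The 6 deposited peak lists, 1 per library and not pooled, give each peak's score as the authors' caller wrote it, a multiple of the negative log of its p-value, from 50 to 3205 and not normalized between libraries. No input peaks were analysed here. The build was checked on the files, where peaks ended past NCBIM37 chromosomes in all 6 lists. The study's limit on fold over input is not on the scale of the deposited scores and was not applied.

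Gene spans came from RefSeq GRCm38.p6, and starts from its promoter table or, for Hp, Orm1 and others without an entry, from the span and the GENCODE M1 strand, which gave 21536 starts. Exon structure and peak sequence were not analysed here. Shared words were counted in exact matches only, in the promoter table and in NCBIM37. Ranks, overlaps and counts were computed with Python 3.11.15, pandas 2.3.3, numpy 2.4.6, scipy 1.17.1 and Biopython 1.88, figures were drawn with matplotlib 3.10.9, and the steps were tested on simulated data.

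Groups are receptor and diet, as labelled. With 1 library per group, values are counts, shares and ranks without tests. The members, gene lists and rules were chosen with earlier results of these data known. The classes of location were added after the values of the members were seen. All members were named, with the nearest and the highest-scoring peak per list, every region in all 6 lists, any one-diet peak in the highest 10% of its list, and for each other gene list up to 3 genes with the best RXRα control rank. Alternatives were a limit of 10 kb from the start, a score of at least 100, equal list length, another placement of peaks, overlap limits of 50% and of any base, and merging within 200 bp.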

Additional observations from a re-analysis of the deposited data

Results flagged for a closer look

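Several differences between diets had opposite signs in 2 receptors. None was tested, because each receptor and diet had 1 library. In all windows together, the number of peaks under RA minus control was 7 for RARα and 18 for RARβ, against -1 for RXRα. The whole lists moved in the same directions, from 35521 to 44296 peaks for RARα, 14968 to 29467 for RARβ and 61128 to 59624 for RXRα. The signs over all windows are therefore not particular to these genes. In the Apcs window the difference was -2 for RARα and 2 for RARβ, and the latter also had the opposite sign to RXRα, at -1. In the window of Orm1 and Orm2 it was 2 for RARα and 2 for RARβ, against -1 for RXRα. In the Hp window it was 2 for RARα and 4 for RARβ, against -3 for RXRα, where the RXRα control list had 2 peaks within 1 kb of the start and the RA list 1 wider peak. In the windows of Crp, the Saa genes and Hpx no receptors had opposite signs.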

How the results depend on the processing

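Of 87 values recomputed under an alternative, 62 stayed within their limit and 25 moved past it. The limit was a fixed ratio for counts and the 95% interval for shares. Intervals from few peaks are wide, so staying within them says little. At equal list length the RARβ control list was not cut, so its counts could not move. No paired analysis was possible because each receptor and diet had 1 library. Numbers of peaks are given for RARα, RARβ and RXRα, control then RA. Within 10 kb of the start, the peaks numbered 12, 20, 6, 17, 25 and 23, roughly in the order of the full windows. With a score of at least 100, 3 RARβ control peaks and 13 RARβ RA peaks were left, and 2 members with a RARβ control peak. At equal list length, the peaks numbered 15 and 16 for RARα, 13 for RARβ under RA, and 17 and 14 for RXRα. The share of RARβ control peaks in the RA list was 45.5% at equal length and 100% (3 of 3) with a score of at least 100 in both lists. With that score limit it was also 100% for RARβ control in RXRα and in RARα. The share of RARα control peaks in RXRα was 37.9% with an overlap of 50% and 20% at equal length. At equal length the share in RXRα was 25% for RARα under RA, 18.2% for RARβ control and 61.5% for RARβ under RA. Regions in all 6 lists numbered 3 with a score of at least 100 and 0 at equal length. The cause of these moves was not tested, except that fewer peaks enter at equal length and above a score limit. Any overlap, any base in the window and merging within 200 bp moved no value past its limit.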
